A study of Sus scrofa with 12 samples.

Results

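The genes described here are 5 genes of intestinal calcium absorption and its control by vitamin D: TRPV6, S100G, ATP2B1, VDR and RXRA. They are 5 of 13755 genes with a symbol on the array, and the platform annotation gives them 12 probe sets, that is, groups of short probes for 1 transcript or part of it. All probe sets with one of the 5 symbols were taken, and the probe set of highest mean over the 12 arrays was the main value of its gene, so the main probe sets were chosen by these mean levels, which are given as a description without a test. The genes themselves were selected with earlier results of these data known, so p-values for them are no independent evidence. RNA was taken from the mucosa of the jejunum, which lies between duodenum and ileum, of 12 pigs at 140 days of age, and each pig had 1 Affymetrix Snowball array. The high feed efficiency group (label 1) held 3 males, replicates 1 to 3, and 3 females, replicates 4 to 6. The low feed efficiency group (label 2) held 3 males, replicates 1 to 3, and 3 females, replicates 4 to 6. No drug or genetic change is named in the labels, and the labels used here do not state breed, diet or how feed efficiency was scored.

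Calcium crosses the intestinal epithelium in 3 steps. It enters the absorptive cell from the gut lumen through the channel TRPV6, is carried through the cell by the small binding protein calbindin-D9k, encoded by S100G, and leaves at the blood side through the calcium pump encoded by ATP2B1. Active vitamin D binds the receptor VDR, which pairs with the retinoid X receptor encoded by RXRA, and TRPV6 and S100G are textbook targets of that pair in the gut.

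Values are log2 signals, so a difference of 1 is a doubling. Across the 12 arrays, medians ran from 4.02 to 4.16 log2 units. The enterocyte genes SI and LCT averaged 9.70 and 11.39 log2 units, while the ileal genes SLC10A2 and FABP6 averaged 3.38 and 4.56. High feed efficiency replicate 1, a male, stood apart. The mean of its 4 measured duodenal gland and gastric markers (TFF2, PGC, GKN1 and MUC5AC) was 9.60 log2 units, against 5.0 to 6.6 in the other 11 pigs. The mean of its 9 measured enterocyte markers was 8.39, against 9.67 to 11.09. Results are therefore given with and without this pig where it matters. In bulk mucosa, fewer cells of a type and less RNA per cell cannot be told apart.

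TRPV6, the entry channel, was low in the high feed efficiency males and higher in every other pig. Its main probe set measured 7.45, 7.45 and 7.56 log2 units in high feed efficiency males, against 8.51, 8.26 and 8.68 in low feed efficiency males. In high feed efficiency females it measured 8.60, 8.64 and 8.54, against 9.06, 8.74 and 8.68 in low feed efficiency females. The high pigs lay below the low pigs without overlap within each sex, by a wide gap in males and a narrow one in females. Over the whole groups the ranges overlapped, because the high females lay above the lowest low male. The second TRPV6 probe set tracked the first across the 12 pigs (r = 0.984). It measured 7.35, 7.05 and 7.16 in high males, against 8.25, 8.06 and 8.55 in low males. In females it gave 8.33, 8.57 and 8.40 in the high group, against 8.92, 8.39 and 8.42 in the low group, and there the groups overlapped.

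**Figure D1:**
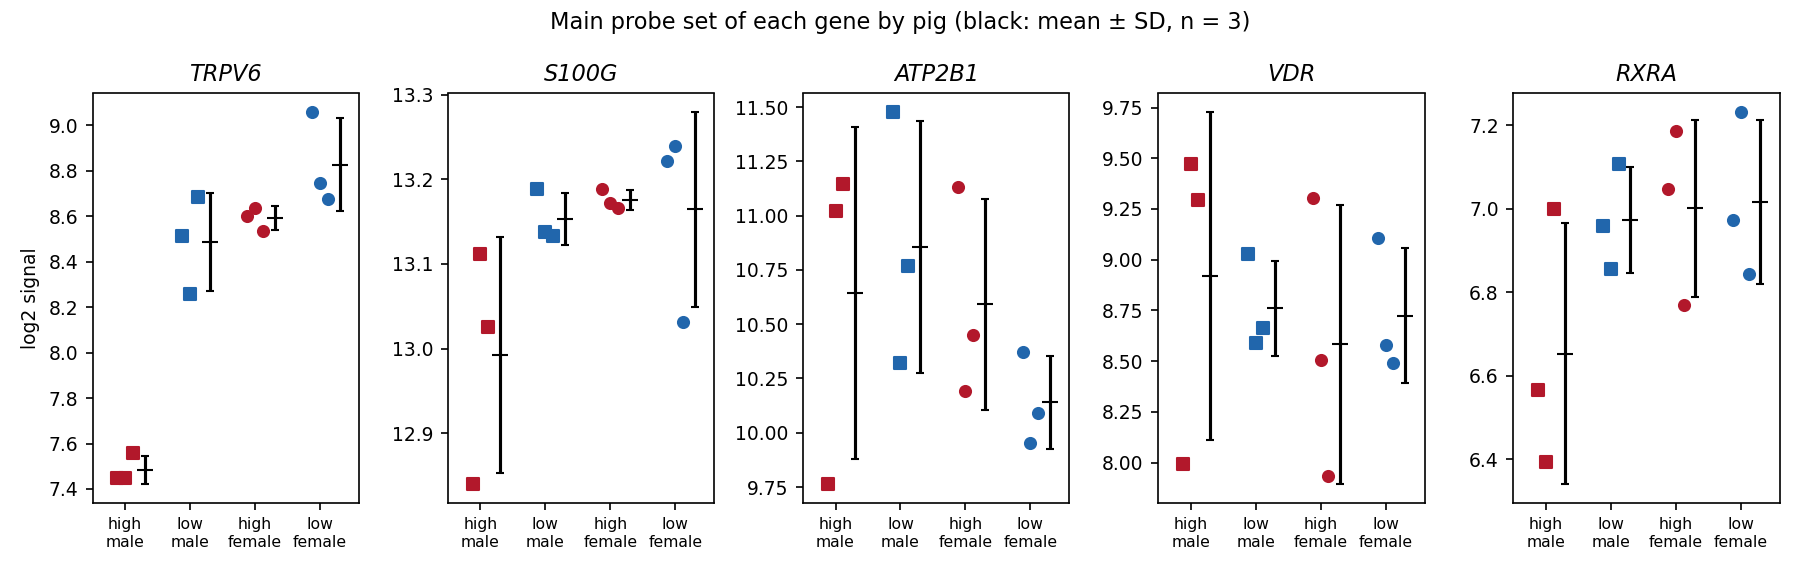
Log2 signal of the main probe set of each of the 5 genes in every pig, high (red) and low (blue) feed efficiency, males as squares and females as circles, with the mean ± SD of 3 pigs in black. The 3 high feed efficiency males lie at 7.45 to 7.56 for TRPV6, below the other 9 pigs at 8.26 to 9.06, while for VDR and ATP2B1 the 4 sets of pigs overlap.

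The first comparison asked how the genes differed between high and low feed efficiency. TRPV6 averaged 8.04 ± 0.609 log2 units in high pigs and 8.66 ± 0.265 in low pigs (SD, n = 6 each). The difference was -0.62 (SE 0.155, 95% interval -0.954 to -0.282) or a 1.53-fold lower signal. This did not pass adjustment over all 35791 probe sets tested (limma adjusted p 0.6). Of the 5 genes 0 passed, and over all probe sets 0 passed too (0%). An unadjusted p under 0.05 by limma was reached by 7.79% of all probe sets, and by 3.98% with a lower value in the high group. Among the 5 genes TRPV6 alone reached it. An exact two-sided permutation of the labels within sex gave p = 0.005 for TRPV6, the smallest that 400 relabellings allow. For the second probe set the difference was also -0.62 (SE 0.189, limma adjusted p 0.621), with an exact permutation p of 0.03. High pigs below low pigs without overlap within both sexes, the pattern of the main TRPV6 probe set, was found in 128 probe sets (0.358%), and the opposite pattern in 0.419%.

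Within males the TRPV6 difference was -1.0 (SE 0.159, limma adjusted p 0.137), which is 2-fold, and within females it was -0.23 (SE 0.159, limma adjusted p 0.824). No probe set passed within males or within females, and 8.72% and 5.44% of probe sets had an unadjusted p under 0.05. By exact permutation each of these contrasts of 3 against 3 gave p = 0.1 for TRPV6, the smallest p possible there. The difference between the sexes, tested as an interaction, was -0.77 (SE 0.225), with an unadjusted p of 0.00578 and an adjusted p of 0.743 by limma, so it did not pass. An unadjusted p under 0.05 for the interaction was reached by 6.69% of probe sets. The 3 high males were singled out after their values were seen. In all, 2.01% of probe sets had the 3 high males below the other 9 pigs. Without high feed efficiency replicate 1 the overall TRPV6 difference was -0.57 (SE 0.16, limma adjusted p 0.344), and in males -0.98 (SE 0.18, adjusted p 0.227).

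Several markers of the upper small intestine and of cell types also had low or high values in the high males. The 6 listed proximal markers, all measured, averaged 8.35 to 9.22 log2 units in high feed efficiency males, against 9.08 to 9.63 in the other 9 pigs, and 6 of 6 had a negative difference in males. The iron exporter SLC40A1 measured 9.39, 9.17 and 10.09 in high males, against 11.05, 11.08 and 10.95 in low males, and 10.86 to 11.19 in the other 9 pigs. SLC11A2, the iron importer at the lumen side, measured 9.43, 9.56 and 11.10 in high males, against 11.46, 10.97 and 11.33 in low males. PDX1, a transcription factor of the upper gut, differed by -0.04 in males. CYBRD1, another of the 6, differed by -0.70 in males, which rests on high replicate 1. It measured 8.54, 10.70 and 10.65 in high males, against 11.14, 9.75 and 11.11 in low males. The count of 6 was not computed without that pig. Of the enterocyte markers 9 of 9 had a negative difference in males (median -0.85), with list means of 8.39, 10.74 and 10.64 in high males, against 9.67 to 11.09 in the other 9 pigs. For these markers high replicate 1 lay below the other 9 pigs, and high replicates 2 and 3 lay within their range. The count and median in males include replicate 1 and were not computed without it. Over all 12579 tested genes the median difference in males was -0.01. Of the 6 fibroblast markers 0 had a negative difference in males (median 0.65), with list means of 9.26 to 10.29 in high males, against 8.94 to 9.85 in the other 9 pigs. Of the 5 measured leukocyte markers 3 had a negative difference in males, with list means of 6.69 to 7.04 in high males, against 6.58 to 7.26 in the other 9 pigs. CD3E, a subunit of the T cell receptor complex, measured 7.91 to 8.12 in high males, against 8.42 to 9.02 in the other 9 pigs, and differed by -0.75 in males. CD3D, another subunit, differed by -0.91 in males, and its ranges overlapped, at 7.56 to 8.23 in high males, against 8.14 to 9.29 in the other 9 pigs. The rest of the leukocyte list did not follow these T cell genes. In males PTPRC differed by 0.17, MS4A1 by 0.52 and CD14 by -0.0022. Of the 4 duodenal gland and gastric markers 0 had a negative difference in males (median 0.79), which rests on high replicate 1. The list mean was 9.60 in that pig. High replicates 2 and 3, at 5.40 and 5.46, lay below the low males at 5.86 to 6.12. The SD of the log2 values on an array was 2.15 to 2.19 in high feed efficiency males, against 2.18 to 2.28 in the other 9 pigs. With quantile normalization, which equalizes that SD, the TRPV6 difference was -0.52. The part of these markers in the TRPV6 result was not tested.

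S100G, the calcium carrier inside the cell, gave a signal near the top of the scale. Its mean of 13.12 log2 units exceeded that of 99.9% of probe sets, with 14.24 the highest value on any array, and whether differences are compressed at such levels was not tested. It measured 12.84, 13.11 and 13.03 log2 units in high feed efficiency males, against 13.19, 13.14 and 13.13 in low males. In high females it measured 13.19, 13.17 and 13.17, against 13.22, 13.24 and 13.03 in low females. The high males lay below the low males without overlap, as in 6.81% of all probe sets, with the lowest value of all pigs in high replicate 1, and the females overlapped. The group means were 13.08 ± 0.134 and 13.16 ± 0.0756 (SD, n = 6 each, high and low), a difference of -0.08 (SE 0.0961, 95% interval -0.284 to 0.134, limma adjusted p 0.868). It was -0.16 in males and 0.01 in females, and without high replicate 1 it was -0.0316 overall (SE 0.0923, adjusted p 0.917).

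ATP2B1, the exit pump, varied widely within both groups. Its main probe set had a lowest, median and highest value of 9.76, 10.73 and 11.15 log2 units in high feed efficiency pigs, against 9.95, 10.35 and 11.48 in low feed efficiency pigs. The 2 ranges overlapped almost entirely, with the lowest value in high replicate 1 and the highest in low replicate 1. The difference was 0.12 (SE 0.285, 95% interval -0.501 to 0.74, limma adjusted p 0.935). It was -0.21 in males and 0.45 in females, and without high replicate 1 it was 0.35 overall (SE 0.223, adjusted p 0.531) and 0.23 in males. Of the other 4 probe sets of ATP2B1, 3 were tested and differed by -0.16, 0.20 and -0.41, and one with a mean of 1.56 fell under the filter level of 2.29.

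VDR, the vitamin D receptor, had nearly equal group means and a wider spread in the high group. Its lowest, median and highest values were 7.93, 8.90 and 9.47 log2 units in high feed efficiency pigs, against 8.49, 8.63 and 9.10 in low feed efficiency pigs. High replicates 2, 3 and 4 lay above all low pigs and high replicates 1 and 6 below them. The means were 8.75 ± 0.696 and 8.74 ± 0.258 (SD, n = 6 each, high and low), a difference of 0.01 (SE 0.281, 95% interval -0.602 to 0.619, limma adjusted p 0.996). The interval leaves room for a difference of about the size seen for TRPV6. The sign of the VDR difference turned with single pigs and ran between -0.135 without high replicate 4 and 0.198 without high replicate 1. In males it was 0.16, and 0.622 without high replicate 1 (limma adjusted p 0.587). The other 2 probe sets of VDR differed by -0.0039 and 0.13.

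RXRA, the partner of VDR, had 1 probe set. It measured 6.57, 6.39 and 7.0 log2 units in high feed efficiency males, against 6.96, 6.85 and 7.11 in low males. In high females it measured 7.05, 7.19 and 6.77, against 6.97, 7.23 and 6.84 in low females. High males 1 and 2 were the lowest of all pigs, and the third lay among the rest. The difference was -0.17 (SE 0.140, 95% interval -0.472 to 0.135, limma adjusted p 0.778), made up of -0.32 in males and -0.02 in females. Exact permutation within sex gave p = 0.24 for S100G, 0.725 for ATP2B1, 0.975 for VDR and 0.225 for RXRA.

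**Figure D2:**
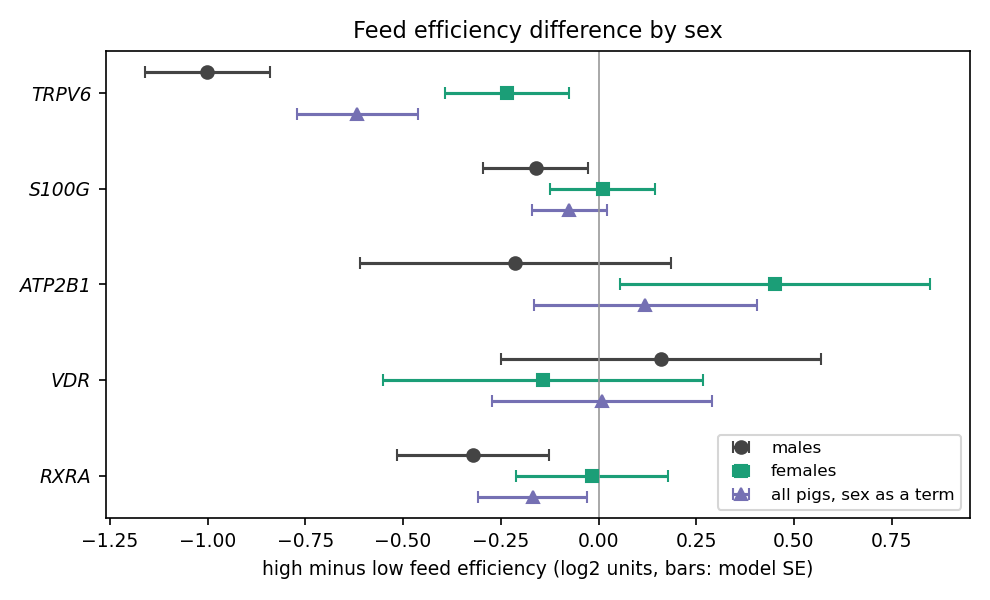
High minus low feed efficiency difference (log2 units, horizontal axis) of each gene in males (circles), in females (squares) and in all pigs with sex as a term (triangles), with the model's standard error as bars. TRPV6 lies at -1.0 in males and -0.23 in females, and the bars of VDR cross 0 in all 3 comparisons.

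Males and females were compared in the same model. TRPV6 was at 7.98 in males and 8.71 in females on average, a difference of -0.72 (SE 0.155, limma adjusted p 0.368). In high pigs TRPV6 averaged 7.48 in males and 8.59 in females, and in low pigs 8.48 and 8.83. Without high replicate 1 the TRPV6 sex difference was -0.674 (limma adjusted p 0.24). In all, 6 of 35791 probe sets passed for sex (0.0168%), and 0 of the 5 genes. An unadjusted p under 0.05 by limma was reached by 9.26% of probe sets and, among the main probe sets of the 5 genes, by that of TRPV6. The probe sets of ATP2B1 disagreed for sex. Beside its main one, they differed by 0.58 (unadjusted limma p 0.0374, adjusted 0.525), 0.12 and -0.04. S100G, which is carried on the X chromosome, differed by -0.10 (SE 0.0961, adjusted p 0.749), RXRA by -0.20, ATP2B1 by 0.38 and VDR by 0.19, with adjusted p from 0.658 to 0.840. Without high replicate 1 these differences were -0.0535 for S100G, -0.16 for RXRA, 0.616 for ATP2B1 and 0.376 for VDR, with limma adjusted p from 0.275 to 0.829. With each pig left out in turn VDR ran from 0.0262 to 0.376, ATP2B1 from 0.209 to 0.616 and S100G from -0.136 to -0.0535. The interaction of feed efficiency and sex did not pass for any of the 5 genes, with adjusted p from 0.743 to 0.932.

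The second comparison asked whether TRPV6 moved with the other genes across pigs. TRPV6 fell into separate clusters: the gap of 0.70 log2 units between the 3 high feed efficiency males and the other 9 pigs exceeded the largest gap among those 9, which was 0.31. A correlation over all pigs would therefore mostly describe that gap, so r is given over the 9 pigs, and the 3 high males are too few for one. This set of 9 pigs was defined after the values were seen. Over the 9 pigs, r with RXRA was 0.350 (rho 0.517, exact permutation p = 0.369 and 0.162) and r with S100G was 0.308 (rho 0.283, exact permutation p = 0.392 and 0.463). For VDR r was 0.294 (rho 0.100, exact permutation p = 0.451 and 0.810), and for ATP2B1 r was -0.215 (rho -0.400, exact permutation p = 0.568 and 0.291). These 4 are among 60 relations computed, and the adjusted p of their r over the 60 ran from 0.564 to 0.668.

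Leaving out the 2 pigs farthest from the TRPV6 median, low replicates 2 and 4, gave r of 0.610 for RXRA, -0.0903 for S100G, -0.0499 for VDR and -0.686 for ATP2B1. The signs for S100G and VDR therefore rest on those pigs. Within the 6 low feed efficiency pigs r was 0.371, 0.335, 0.423 and -0.228 for RXRA, S100G, VDR and ATP2B1, and within the 6 females it was 0.153, 0.353, 0.497 and -0.229. Set against the same 9-pig r of 12578 genes with TRPV6, the r of RXRA exceeded that of 83.4% of genes, S100G 80.3%, VDR 79.0% and ATP2B1 25.2%. Over all 12 pigs, the gap included, S100G had an r of 0.715 with TRPV6 and exceeded 96.5% of genes, and RXRA had 0.686 and exceeded 95.6%. On residuals after group and sex the r was 0.549 for S100G (permutation p = 0.0603) and 0.531 for RXRA (permutation p = 0.0795). It was 0.0542 for VDR (permutation p = 0.867) and 0.48 for ATP2B1 (permutation p = 0.112). Group and sex were additive terms over the 12 pigs, so these residuals keep their interaction, -0.77 for TRPV6 and -0.66 for ATP2B1. Part of the gap of the high males thus remains in these r. With the TRPV6 level as the covariate over the 9 pigs, 0 of 35789 probe sets passed by limma (0%), and 3.09% had an unadjusted p under 0.05.

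**Figure D3:**
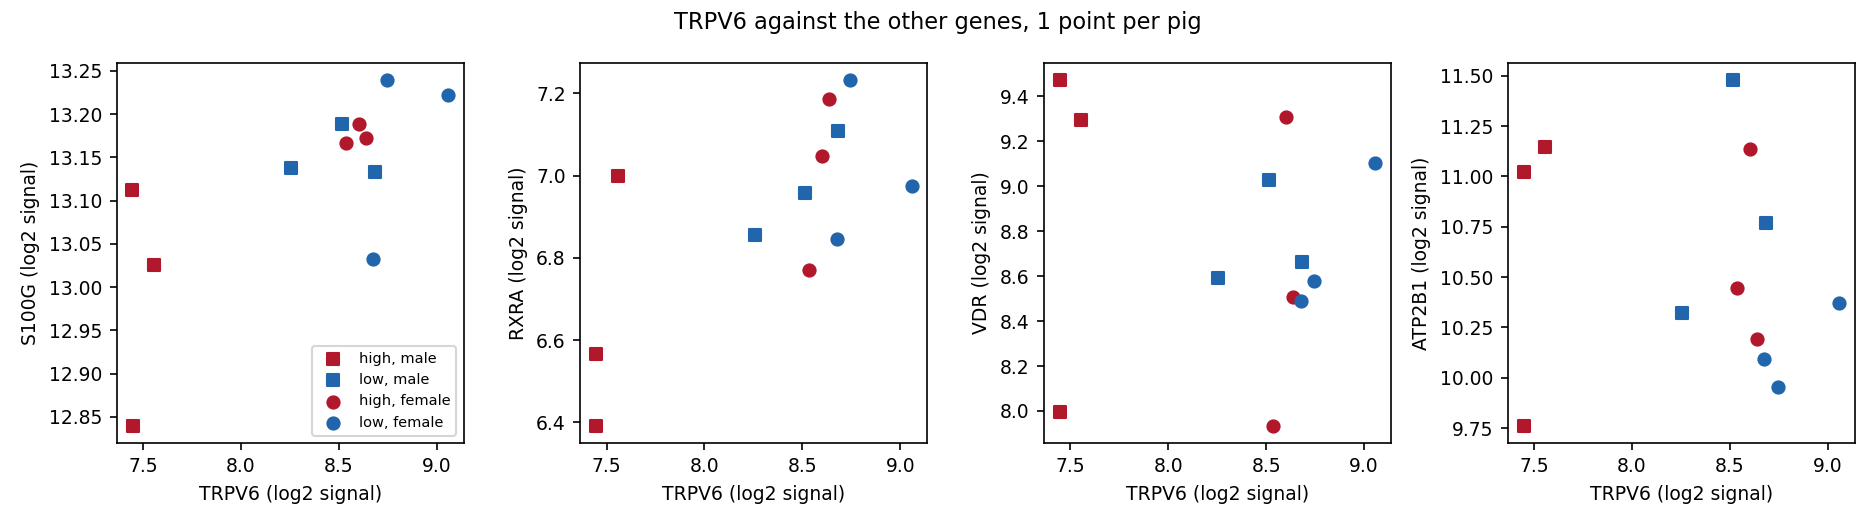
Log2 signal of S100G, RXRA, VDR and ATP2B1 against that of TRPV6, with 1 point per pig, high feed efficiency in red, low in blue, males as squares and females as circles. The 3 high males form a cluster at 7.45 to 7.56 on the TRPV6 axis, and among the other 9 pigs no relation passed its test.

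VDR and ATP2B1 tended to be high in the same pigs, with r = 0.733 and rho = 0.706 (permutation p = 0.00788 and 0.0138, 0.0686 and 0.135 after adjustment over the 60 relations), so the relation did not pass after adjustment. Without the 2 pigs farthest from the VDR median, high replicates 2 and 6, r was 0.815. Within groups r was 0.878 among high pigs and 0.602 among low pigs, and 0.855 in males and 0.534 in females. With the mean over all tested probe sets of each gene r was 0.566 (permutation p = 0.0559). The 4 relations of VDR and ATP2B1 with RXRA and S100G had r from 0.00300 to 0.322, and S100G and RXRA had r of 0.550 (permutation p = 0.103).

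ATP2B1 also moved with the cell-type markers of the samples. Its r with the mean of 9 enterocyte markers was 0.770 (rho 0.888, permutation p = 0.00012 and 0.00038, adjusted 0.0028 and 0.0076). Its r with the mean of 5 goblet cell markers, genes of the mucus-secreting cells, was -0.932 (rho -0.930, permutation p = 6e-05 and 8e-05, adjusted 0.0028 and 0.0024). With 4 smooth muscle markers r was -0.858 (rho -0.923, permutation p = 0.00014 and 8e-05, adjusted 0.0028 and 0.0024), and with the duodenal gland and gastric markers -0.684 (rho -0.846, permutation p = 0.00086 and 0.0008, adjusted 0.0129 and 0.012). These 4 were the relations that passed among the 60, and each had the same sign within both feed efficiency groups and both sexes. The 4 lists are not independent of each other. High replicate 1 had the lowest enterocyte mean and the highest goblet, smooth muscle and gastric means. The share of all genes with such an r to these lists was not computed. For goblet markers r was -0.908 among high pigs and -0.958 among low pigs, and -0.971 in males and -0.803 in females. Without the 2 pigs farthest from the ATP2B1 median, low replicate 1 and high replicate 3, it was -0.898 for goblet, 0.757 for enterocyte, -0.832 for smooth muscle and -0.751 for gastric markers. With each single pig left out in turn, high replicate 1 included, r ran from -0.949 to -0.905 for goblet and from 0.742 to 0.824 for enterocyte markers.

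VDR had an r of 0.643 with the enterocyte markers (rho 0.713, permutation p = 0.0211 and 0.0124, adjusted 0.127 and 0.135), which did not pass. For S100G the r of 0.788 with enterocyte markers (permutation p = 0.0284, adjusted 0.155) did not pass either. Without the 2 pigs farthest from the S100G median, high replicates 1 and 3, it was 0.481, and its rho over all pigs was 0.308. S100G had its highest r with the proximal small intestine markers, 0.849 (rho 0.692, permutation p = 0.0052 and 0.0158, adjusted 0.0624 and 0.135), and 0.649 without the same 2 pigs. RXRA had an r of 0.788 with those markers (rho 0.608, permutation p = 0.008 and 0.0385, adjusted 0.0686 and 0.193), and 0.418 without high replicates 1 and 2. Neither passed after adjustment. TRPV6 had an r of 0.0113 with the enterocyte markers over its 9 pigs (rho -0.05, exact permutation p = 0.987 and 0.912). That r was -0.525 without low replicates 2 and 4, and 0.348 over all 12 pigs, where the gap between clusters enters. The part of cell composition in the relation of VDR to ATP2B1 was not tested.

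**Figure D4:**
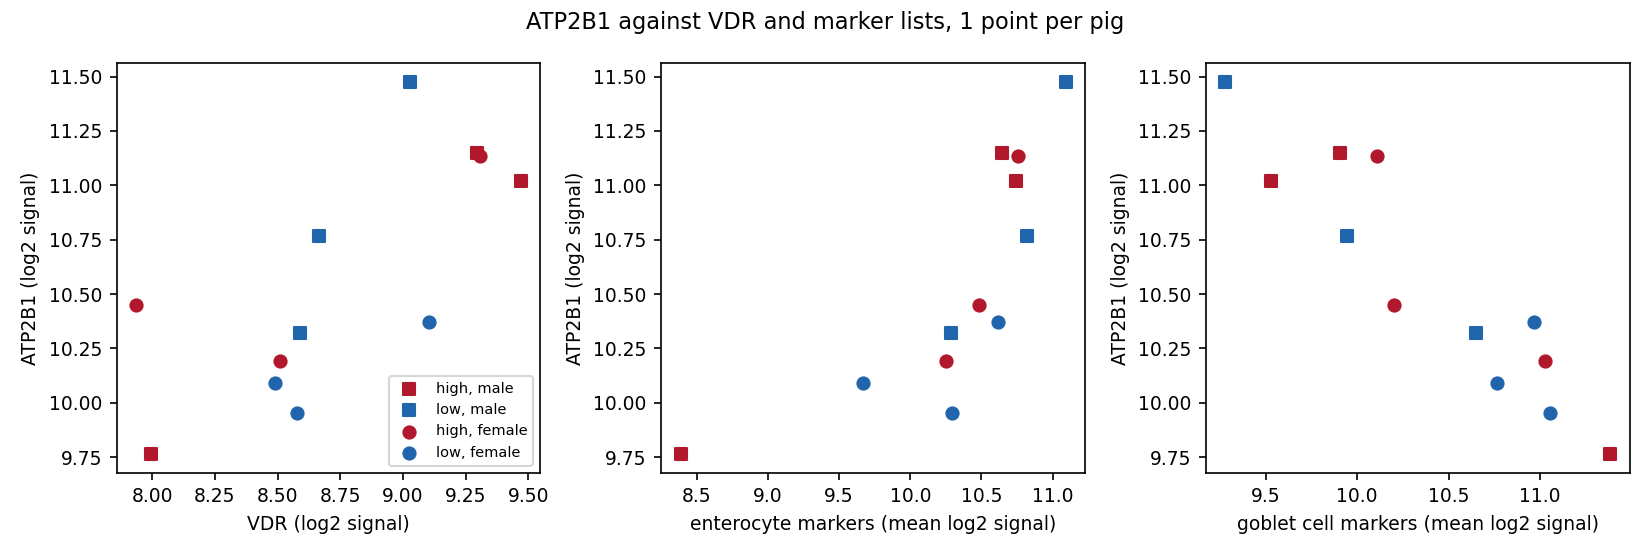
ATP2B1 log2 signal against VDR log2 signal, the mean log2 signal of 9 enterocyte markers and that of 5 goblet cell markers, with 1 point per pig, high feed efficiency in red, low in blue, males as squares and females as circles. ATP2B1 was lowest where goblet markers were highest, and high replicate 1 lies at the low end of the enterocyte axis at 8.39.

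The genes whose pattern over the 12 pigs was most like that of TRPV6 were then listed, by Pearson r among 12574 genes other than the 5. These r include the gap between clusters, so the r over the 9 pigs stands beside each. The 9 pigs were among the 12 used for the choice, which favours a strong r in them too, so it is no separate check. The closest was SLC39A5, a zinc transporter of the blood side of enterocytes, at 0.973 (0.843 over the 9 pigs). It measured 6.77, 6.93 and 6.74 log2 units in high feed efficiency males, against 7.67, 7.61 and 7.78 in low males. After it came SPINT1, an inhibitor of membrane serine proteases (0.942, and 0.772 over 9), and ABCB6, a porphyrin transporter (0.941 and 0.737). CIDEB, a lipid droplet protein, had 0.939 and 0.515, and HPGD, which breaks down prostaglandins, had 0.938 and 0.778. CARD6 had 0.936 and 0.460, CEACAM18 0.928 and 0.613, and AGPAT2, an enzyme of phospholipid and triglyceride synthesis, 0.926 and 0.580. All 8 had the 3 high males below the other 9 pigs, which 2.01% of probe sets showed. Choosing genes by an r that includes the gap favours this pattern, so it is not a separate result. The most opposite were EPB41L2, a membrane skeleton protein (-0.918 and -0.716), GNB5, a G protein subunit (-0.916 and -0.781), MAP1A, a microtubule-associated protein (-0.912 and -0.591), and GREM1, a stromal antagonist of BMP signalling (-0.910 and -0.509). In these 4 the high males lay above the other 9 pigs, which 1.41% of probe sets showed and which the same choice favours.

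The wider pathway was described with 62 genes in 6 lists, of which 53 were measured above the filter. The lists were drawn up with earlier results of these data known. Of the 53, 0 passed for feed efficiency by limma, and the smallest adjusted p was 0.621. The difference was negative in 32 and positive in 21, against 7197 and 5382 of all 12579 tested genes and a negative share of 51.6% of all probe sets, and the medians were -0.05 and -0.03. At an unadjusted p under 0.05 there were 4, all lower in the high group, against 898 of the 12579 genes. Without high replicate 1 the 53 split into 29 negative and 24 positive, with 7 at an unadjusted p under 0.05, which 11.9% of all probe sets reached in that fit. Lower in high pigs were CDKN1A (-0.52), CCND3 (-0.44), CALM2 (-0.53), RAB11A (-0.52) and the adhesion protein gene CDH1 (-0.32), and higher were CYP3A22 (0.51) and the sodium-calcium exchanger SLC8A1 (0.38). The limma adjusted p of these 7 ran from 0.353 to 0.412.

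Of genes for calcium entry, binding and export, 16 of 18 were measured, 10 lower and 6 higher in the high group, with a median of -0.08. RAB11A, which recycles membrane proteins including TRPV channels to the surface, averaged 8.76 ± 0.361 log2 units in high pigs and 9.29 ± 0.374 in low pigs (SD, n = 6 each). Its difference was -0.53 (SE 0.173, limma adjusted p 0.621). The calmodulin gene CALM2 averaged 9.30 ± 0.477 in high pigs and 9.85 ± 0.252 in low pigs, and differed by -0.55 (SE 0.185, limma adjusted p 0.621). CALM3 differed by -0.18, and S100A10, a partner of TRPV channels at the membrane, by -0.25. TRPV5, the kidney relative of TRPV6, averaged 3.15 in high and 3.23 in low pigs.

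Of listed vitamin D receptor targets in the gut 12 of 14 were measured, 8 lower and 4 higher, with a median of -0.04. The cell cycle inhibitor CDKN1A averaged 7.39 ± 0.611 in high pigs and 7.93 ± 0.295 in low pigs (SD, n = 6 each), and differed by -0.54 (SE 0.196, limma adjusted p 0.624), with -0.93 in males and -0.16 in females. The drug-metabolizing enzyme CYP3A46 differed by -0.76 (SE 0.405, limma adjusted p 0.675), with -1.65 in males and 0.14 in females. It measured 8.41 in high replicate 1, against 10.06 and 9.94 in the other high males. Without high replicate 1 the CYP3A46 difference was -0.42 (SE 0.314, limma adjusted p 0.597). CYP3A genes are near-identical copies and their probe sets may share signal. The cyclin CCND3 differed by -0.36, and CYP3A22, near the floor at 2.80 in high and 2.36 in low pigs, by 0.43. CYP24A1, which degrades active vitamin D and is a strong VDR target, was also dim, at 2.60 in high and 2.64 in low pigs.

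The other 4 lists had 0 genes at an unadjusted p under 0.05. Of receptor partners and coregulators 10 of 11 were measured, 4 lower and 6 higher, led by the corepressor NCOR1 (-0.28), the protein disulfide isomerase PDIA3 (-0.23), RXRB (0.43) and NCOA2 (0.20). Of vitamin D supply and breakdown 6 of 8 were measured, 5 lower and 1 higher. Among them were DHCR7 (-0.19), the hydroxylase CYP27A1 (-0.24), the carrier gene GC (0.14) and CUBN (-0.08). GC, CUBN, LRP2 and CYP24A1 were near the floor, with means over all pigs of 2.61, 2.76, 2.68 and 2.62 log2 units. The split of signs in this list therefore rests mostly on dim genes, and whether their differences exceed background was not tested. Of phosphate and magnesium transporters 8 of 10 were measured, 4 lower and 4 higher, among them SLC20A1 (0.24), SLC20A2 (0.25), CNNM4 (-0.12) and TRPM6 (0.24). Of the paracellular route, the passage between cells, 6 of 6 were measured, 4 lower and 2 higher, among them CDH1 (-0.25), CLDN12 (0.23), OCLN (-0.26) and CLDN15 (-0.17).

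**Figure D5:**
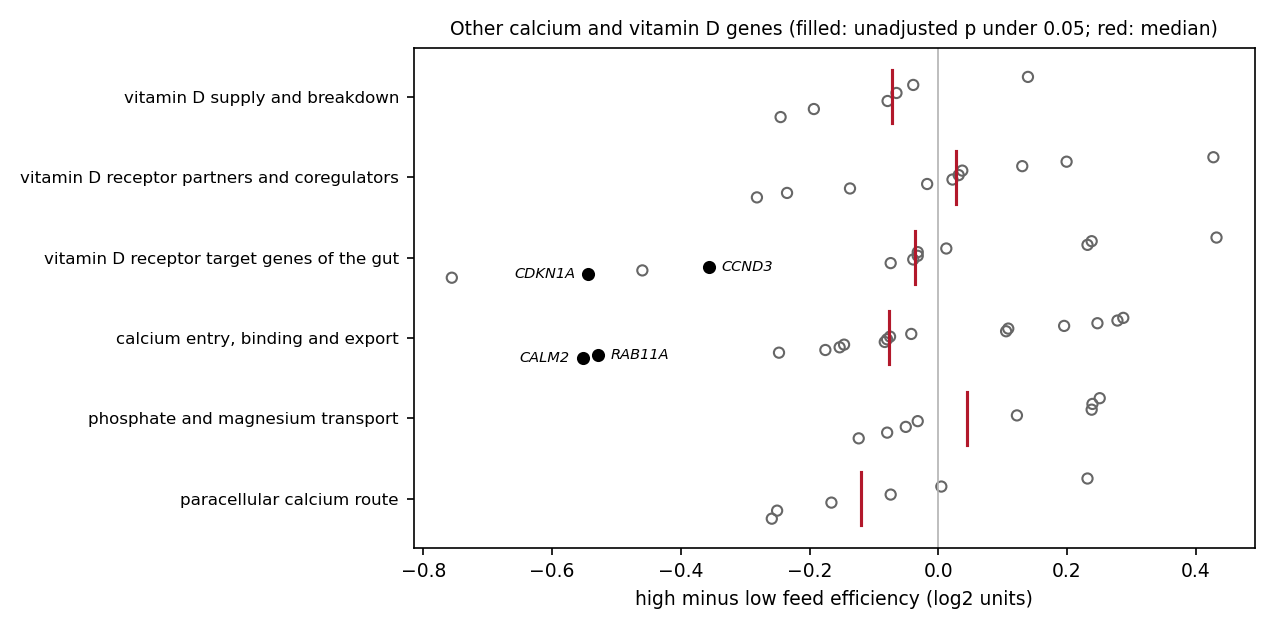
High minus low feed efficiency difference (log2 units, horizontal axis) of each measured gene in 6 lists, with filled points for an unadjusted p under 0.05 and a red line at each list's median. The 4 filled genes, CALM2, RAB11A, CDKN1A and CCND3, lie between -0.55 and -0.36, and the medians of the lists lie between -0.12 and 0.05.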

How the data were processed

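Per the labels, jejunal mucosa RNA of 12 pigs was hybridized to 1-colour Affymetrix arrays. What the authors deposited is a table with a log2 value for each probe set on each array. GCOS 1.1.1 was the software, per the submitters' processing notes. The sources used here do not name the background correction, summarization or normalization. The values were used as deposited. Of 47845 probe sets, 123 controls were left out, and 35791 were tested, those whose mean exceeded 2.29 log2 units (the 25th percentile), 11 of the 12 of the 5 genes among them. The symbols of 446 probe sets were updated through unique synonyms in the RefSeq table of Sscrofa11.1, used for names only. The members and lists were chosen with earlier results of these data known.

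High against low feed efficiency was fitted with limma 3.58.1 (R 4.3.3) with sex as a term, and the interaction from the 4 means of group and sex, with Benjamini-Hochberg adjustment over all probe sets at 0.05. Each array is a different pig per the labels. Arrays have no read depth, and their number limits the precision. Values after ± are SDs. Correlations used permutation tests (SciPy 1.17.1), exact for under 10 pigs and otherwise of 100000 resamples. The pooled correlation of TRPV6 that had been planned was replaced by that over 9 pigs, because TRPV6 fell into clusters. Named genes were the 5 members, up to 4 per list by the smallest unadjusted p, and those of highest and lowest r with TRPV6 and of highest r with S100G and VDR. TRPV5, CYP24A1, CALB1, SLC8A1 and marker genes are named outside this rule. The fits were tested on simulated data. Alternatives were no sex term, quantile normalization, other filters, array weights, the array spread as a covariate, the mean over probe sets, and leaving out pigs.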

Additional observations from a re-analysis of the deposited data

Results flagged for a closer look

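Each of the 11 tested probe sets was examined in both groups for a pig far from the other 5, which chance flags in about 1 of 20 groups, and 2 of 22 stood out. In the ATP2B1 probe set SNOWBALL_047468_st, high feed efficiency replicate 1 measured 3.97 log2 units, against 5.53 to 5.89 in the other high pigs. In the ATP2B1 probe set SNOWBALL_047487_st, low feed efficiency replicate 1 measured 10.04, against 8.63 to 9.16 in the other low pigs. High replicate 1 was also the pig of lowest enterocyte and highest goblet markers (8.39 and 11.38), and low replicate 1 that of highest enterocyte and lowest goblet markers (11.09 and 9.28); the part of these markers in the 2 values was not tested.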

How the results depend on the processing

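TRPV6 kept a negative feed efficiency difference, past no threshold, under every alternative run. It was -0.235 without the 3 high feed efficiency males (limma adjusted p 0.733), against -0.618 with all pigs. It ran from -0.694 to -0.531 with single pigs left out (limma adjusted p 0.293 to 0.896), and was -0.524 with quantile normalization, -0.566 with the array spread as a covariate and -0.627 with array weights. Differences near 0 turned sign, and the cause was not tested. With the array spread as a covariate VDR was at -0.499 and ATP2B1 at -0.337. Without the 3 high feed efficiency males VDR was at -0.141 and S100G at 0.0108, and with the mean over probe sets ATP2B1 was at -0.0616. With single pigs left out VDR ran between -0.135 and 0.198, ATP2B1 between -0.0379 and 0.352, and the VDR interaction between -0.0235 and 0.764. The probe sets that passed with TRPV6 as the covariate numbered 91 over 12 pigs (0.254%), 10 without high replicate 3 and 216 without high replicate 4, 11 with quantile normalization, 0 with group and sex as terms and 0 over the 9 pigs. The r of TRPV6 with VDR was -0.116 over all 12 pigs and -0.0499 without the 2 farthest. With S100G it was 0.715 over 12 pigs (permutation p = 0.0139) and -0.0903, and with RXRA 0.686 over 12 pigs (permutation p = 0.0272), where the gap between clusters enters. With ATP2B1 it was 0.0929 with quantile normalization and 0.48 on residuals after group and sex, which keep their interaction. VDR and RXRA had r of -0.101 with the mean over probe sets, -0.0326 in low pigs and -0.00855 in males. ATP2B1 and RXRA had -0.103 without the 2 farthest pigs, -0.11 in low pigs and -0.178 in females. With single pigs left out r ran between -0.219 and 0.509 for VDR and RXRA, -0.253 and 0.252 for ATP2B1 and RXRA, -0.154 and 0.46 for S100G and ATP2B1, and -0.111 and 0.461 for VDR and S100G. The correlation of TRPV6 within high pigs and within males was not run, since each holds the separate cluster of 3. The alternatives with the array spread, without the high males and over the 9 pigs were chosen after seeing the data. No paired analysis was possible because the replicate numbers follow accession order and the labels pair no pigs. The number of arrays, 6 per group, limits what can be resolved, as the intervals show.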

Other observations

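The genes most like S100G and VDR over the 12 pigs differed from those most like TRPV6. For S100G they were HSD17B4, a peroxisomal enzyme of fatty acid breakdown (r 0.952, and 0.921 over the 9 pigs other than the high feed efficiency males), PLEKHG6 (0.944 and 0.806), TM4SF5 (0.939 and 0.774) and PGM1, an enzyme of glycogen and glucose metabolism (0.931 and 0.900). For VDR they were the interleukin receptor gene IL17RB (0.953 and 0.905), SOAT2, which esterifies cholesterol in enterocytes (0.919 and 0.923), PCYT2, an enzyme of phospholipid synthesis (0.889 and 0.764), and AP4B1 (0.882 and 0.766). IL17RB was dim, with a mean of 3.36 log2 units. The r over the 9 pigs is no separate check here either, since those pigs were part of the choice.

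CALB1, the calbindin of larger size that is best known from kidney and brain, measured 9.22 log2 units in high feed efficiency replicate 1, against 5.24 to 7.21 in the other 11 pigs. It was looked at after its values were seen.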
